A study of Homo sapiens with 112 samples.

Results

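The comparison described here is that of 2 µM with 500 nM darolutamide in VCaP cells after 8 h, both in the presence of 1 nM R1881. Its members were chosen by label: 5 libraries with the high and 4 with the low dose, of 112 libraries in the series, and the genes that had at least 10 reads in at least 4 VCaP libraries, which were 19266 of 58684 listed genes. VCaP is an established human prostate cancer cell line that carries the fusion of TMPRSS2 to ERG, and a single line is a limited model of the disease. R1881 is a synthetic androgen. Darolutamide is an antiandrogen used against prostate cancer. Before treatment, all groups had spent 2 days without hormone in medium with 10% charcoal-stripped serum. The controls of the same time point were 10 libraries with DMSO alone, the vehicle, and 10 with 1 nM R1881 alone. Libraries of the same doses at 22 h (4 and 5 in VCaP) and of LAPC4, another androgen-responsive prostate cancer line (5 and 5 at 8 h), served for comparison. Replicate numbers are all that the labels say of how libraries relate, so the p values measure the spread between these libraries, while the methods of the study call the replicates biological. The methods give 5 replicates per condition, and the labels do not say why the controls had 10 libraries each and the 500 nM group 4.

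Androgen acts on luminal prostate cells through transcription. Together with pioneer factors such as FOXA1, androgen signalling activates genes of secretion, metabolism and growth, and it lowers others. An antiandrogen competes with androgen, so that at a fixed amount of androgen the amount of antagonist sets how much of the response remains. The contrast between the doses therefore asks which genes still responded to androgen at 500 nM and lost more of that response at 2 µM.

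Between 15973912 and 22326918 reads were counted on genes per library with 500 nM, and between 19011403 and 24869001 with 2 µM. Total counts, the mitochondrial share and the slope of expression on GC content did not differ between the doses by two-sided exact permutation tests adjusted over 4 measures (adjusted p of 0.476, 0.413 and 0.683). The 50 most abundant genes held 14.1% of the counts on average with 500 nM and 14.7% with 2 µM (exact permutation p = 0.0238, adjusted p = 0.0952), where 0.00794 is the smallest p that these groups allow. The GC slope set 500 nM replicate 1 (-0.0886 log2 CPM per percentage point of GC) and 2 µM replicate 3 (-0.0612) farthest apart. The label of the cells was checked against marker genes. Luminal markers such as SLC45A3 and FOXA1 had 11180 reads or more in every library of both doses, while KLK3 had 505 to 974. Among markers of other cell types, KRT5, COL1A2, CD3E and CD68 had 0 reads in every library, KRT14 had 2 to 13, COL1A1 12 to 35 and VWF 13 to 26. Of the neuroendocrine markers, CHGA had 1579 to 3816 reads. The CPM (read counts scaled to library size) summed over 19 markers of basal, neuroendocrine, stromal, immune and endothelial cells lay between 237 and 270.2 with 500 nM and between 253 and 291 with 2 µM (exact permutation p = 0.262), and 0 of its 11 tested members were called between the doses by edgeR at an adjusted p under 0.05 (1 at an unadjusted p under 0.05, and 0 by DESeq2), where 17.6% of all tested genes were called.

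Between the doses, 3386 of 19266 genes differed (17.6%) at a Benjamini-Hochberg adjusted p under 0.05 in the quasi-likelihood test of edgeR, to which all adjusted p below refer unless another test is named. Of these, 1936 were lower with 2 µM (10.0% of all genes) and 1450 were higher (7.53%). With the GC slope of the libraries as a covariate, 5130 genes were called. Most differences were small: the median absolute log2 fold change of the called genes was 0.34, and 255 genes passed 1 on the log2 scale (1.32%), of which 148 were lower (0.768%) and 107 higher (0.555%). In 2801 of the 3386 genes (82.7%) all 5 libraries with 2 µM lay on the same side of all 4 with 500 nM. Over all tested genes the 5 libraries lay below the 4 in 10.6% and above them in 7.64%.

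The direction of the dose difference was set against the effect of R1881 alone, which was measured in libraries that the dose contrast does not use. R1881 against DMSO called 12891 genes at 8 h (66.9%). Of 6327 genes that R1881 induced (32.8% of those tested), 1909 were lower with the higher dose (30.2%) and 3 were higher. Among 6564 genes that R1881 repressed (34.1%), 1425 were higher (21.7%) and 2 were lower. Of 6375 genes not called for R1881, 25 were lower (0.392%) and 22 higher (0.345%). Thus 3334 of the 3386 genes differed between the doses in the direction opposite to the R1881 effect. The size of the difference followed the size of the R1881 effect: the median log2 fold change between the doses was -0.09 for genes that R1881 raised by up to 0.5 on the log2 scale, -0.41 for those raised by 1 to 2, and -1.29 for those raised by more than 3, of which 79.3% were called lower. On the repressed side the corresponding medians were 0.08, 0.41 and 1.12, and 64.1% of the genes lowered by 3 or more were called higher. Across all tested genes, which are not independent replicates, Pearson's r between both log2 fold changes was -0.783 and Spearman's rho -0.729.

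**Figure D1:**
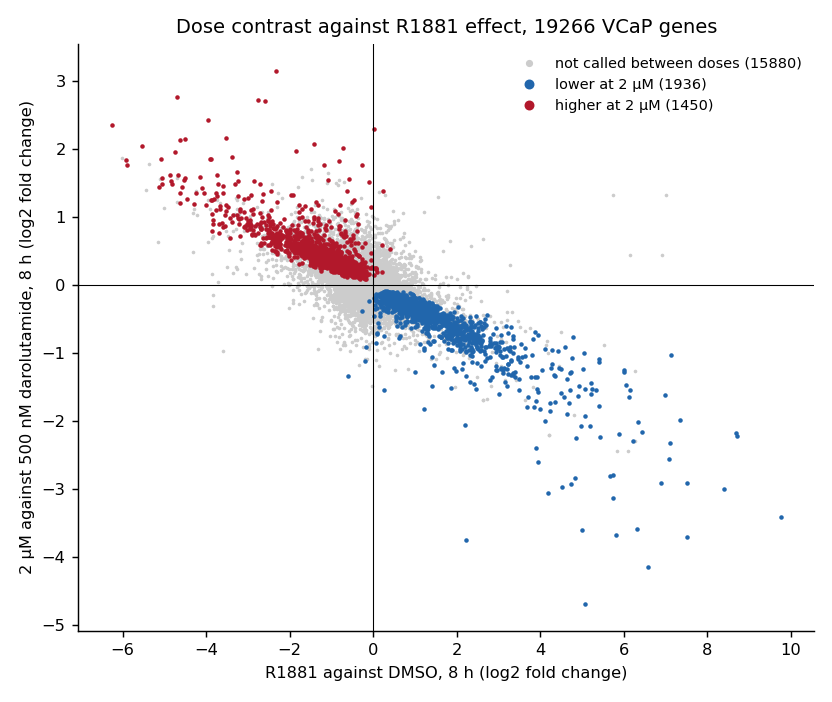
Log2 fold change of 2 µM against 500 nM darolutamide at 8 h (y axis) against that of R1881 alone against DMSO at 8 h (x axis) for the 19266 tested VCaP genes. Blue points are the 1936 genes lower and red points the 1450 genes higher with 2 µM, and nearly all of them lie in the lower right and upper left fields.

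The 10 falls described first are the largest among called genes with an expression above the median and no overlap between the libraries of both doses. RDH10 (chromosome 8, 73294602 to 73325281, coordinates of GRCh38 here and below) encodes a retinol dehydrogenase that makes retinal for retinoic acid synthesis. It was measured at 286, 300.2, 274 and 293 CPM in replicates 1 to 4 with 500 nM and at 37.8, 44.1, 41.7, 40.1 and 37.8 CPM in replicates 1 to 5 with 2 µM. With 2 µM all libraries were just above the DMSO range of 29.7 to 37.1 CPM, whereas R1881 alone gave 726 to 1076 CPM. Its log2 fold change between the doses was -2.84 (standard error 0.0844, adjusted p = 1.1e-33).

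ERRFI1 (chromosome 1, 8004404 to 8026309) encodes MIG6, a feedback inhibitor of the EGF receptor. Its CPM were 199, 212, 199 and 216 with 500 nM and 49.2, 50.6, 46.5, 51.0 and 48.8 with 2 µM, so the groups lay far apart and each was narrow. The log2 fold change was -2.07 (standard error 0.0626, adjusted p = 1.47e-33). TIPARP (chromosome 3, 156673235 to 156706770), a mono-ADP-ribosyltransferase known as a target of the aryl hydrocarbon receptor, had 64.4, 70.1, 62.0 and 73.0 CPM with the low and 18.1, 18.1, 16.9, 18.1 and 17.5 CPM with the high dose. The 5 high-dose values of TIPARP were nearly equal, between 9.88 to 12.8 CPM with DMSO and 315 to 418 CPM with R1881. Its log2 fold change was -1.93 (standard error 0.0772, adjusted p = 1.11e-27).

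FKBP5 (chromosome 6, 35573585 to 35728583), a co-chaperone of steroid receptors that is widely used as a readout of androgen activity, was reversed only in part by either dose. The libraries with 500 nM gave 1461, 1485, 1435 and 1458 CPM and those with 2 µM gave 459, 492, 467, 496 and 479.8 CPM. Every library remained above the DMSO range of 71.2 to 86.0 CPM and below the R1881 range of 2691 to 3188 CPM. The log2 fold change between the doses was -1.61 (standard error 0.0461, adjusted p = 3.53e-34). NCAPD3 (chromosome 11, 134150113 to 134225504), a subunit of condensin II, had 2123, 2147, 2158 and 2229 CPM with 500 nM and 728, 747, 780.3, 776 and 729 CPM with 2 µM. On the log2 scale the difference was -1.53 (standard error 0.0456, adjusted p = 1.1e-33), against a DMSO range of 89.5 to 102 CPM.

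The other falls of this group were IL20RA, a receptor subunit for cytokines of the interleukin-20 family (-1.71, standard error 0.0647, adjusted p = 8.8e-29), and F3, tissue factor, the starter of blood coagulation (-1.35, standard error 0.0893, adjusted p = 1.87e-18). They also included MICAL1, an enzyme that oxidises actin filaments (-1.29, standard error 0.132, adjusted p = 1.2e-11), GRHL1, an epithelial transcription factor of the grainyhead family (-1.27, standard error 0.0806, adjusted p = 2.53e-19), and the transcript CTD-2224J9.8 (-1.30, standard error 0.0716, adjusted p = 9.29e-22). These are log2 fold changes between the doses. MICAL1 was the most variable, between 15.0 and 24.4 CPM within the 2 µM group, and its groups still did not overlap. R1881 alone induced all 10, by a log2 fold change of 3.34 for MICAL1 up to 5.24 for NCAPD3.

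The 10 largest rises, taken by the same rule, were all repressed by R1881. WNT2 (chromosome 7, 117275451 to 117323152), a secreted ligand of the Wnt pathway, was measured at 17.5, 17.3, 13.6 and 15.2 CPM with 500 nM and at 49.9, 47.0, 44.8, 47.2 and 46.9 CPM with 2 µM. DMSO gave 98.8 to 106 CPM and R1881 3.93 to 5.35 CPM, so the 4 groups were fully separated. The log2 fold change between the doses was 1.57 (standard error 0.0804, adjusted p = 4.13e-23). IGFBP3 (chromosome 7, 45912245 to 45921874), which binds insulin-like growth factors outside the cell, had 28, 28.1, 27.5 and 29.4 CPM with the low and 74.9, 84.2, 81.1, 85.0 and 81.5 CPM with the high dose. Between the doses IGFBP3 differed by 1.52 (standard error 0.0836, adjusted p = 7.6e-22) on the log2 scale, and both doses were below the DMSO range of 305 to 390.5 CPM.

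TRIB1 (chromosome 8, 125430358 to 125438403), a pseudokinase that steers proteins to degradation, had 174, 142, 149 and 141 CPM with 500 nM and 433, 432, 378, 431 and 434 CPM with 2 µM, where replicate 3 was the lowest. The corresponding log2 fold change was 1.48 (standard error 0.0747, adjusted p = 2.53e-23). OPRK1, the kappa opioid receptor, a gene known to be lowered by androgen, changed by 1.31 (standard error 0.0810, adjusted p = 1.23e-19). The remaining rises were IHH, a hedgehog ligand (1.03), EDA, ectodysplasin, a ligand of the tumour necrosis factor family (0.88), B3GALT5, a galactosyltransferase (1.02), DOCK10, a guanine nucleotide exchange factor (0.98), MID1, a ubiquitin ligase on microtubules (0.88), and SSTR5-AS1 (1.09), with log2 fold changes in parentheses and adjusted p of 6.33e-05 for IHH and smaller for the others. SSTR5-AS1 is an antisense gene, and since the strand setting of the counting is not given in the sources used here, its reads cannot be told from those of its partner.

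FOXA1, the pioneer factor, had a log2 fold change of 0.07 (standard error 0.0372, adjusted p = 0.209) and overlapping groups. Both doses were above R1881 alone for FOXA1, by 0.34 (500 nM) and 0.41 (2 µM) on the log2 scale. R1881 alone had lowered FOXA1 against DMSO (-0.25). Against DMSO the doses stood at 0.08 (500 nM, adjusted p = 0.0330) and 0.15 (2 µM, adjusted p = 4.15e-05).

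**Figure D2:**
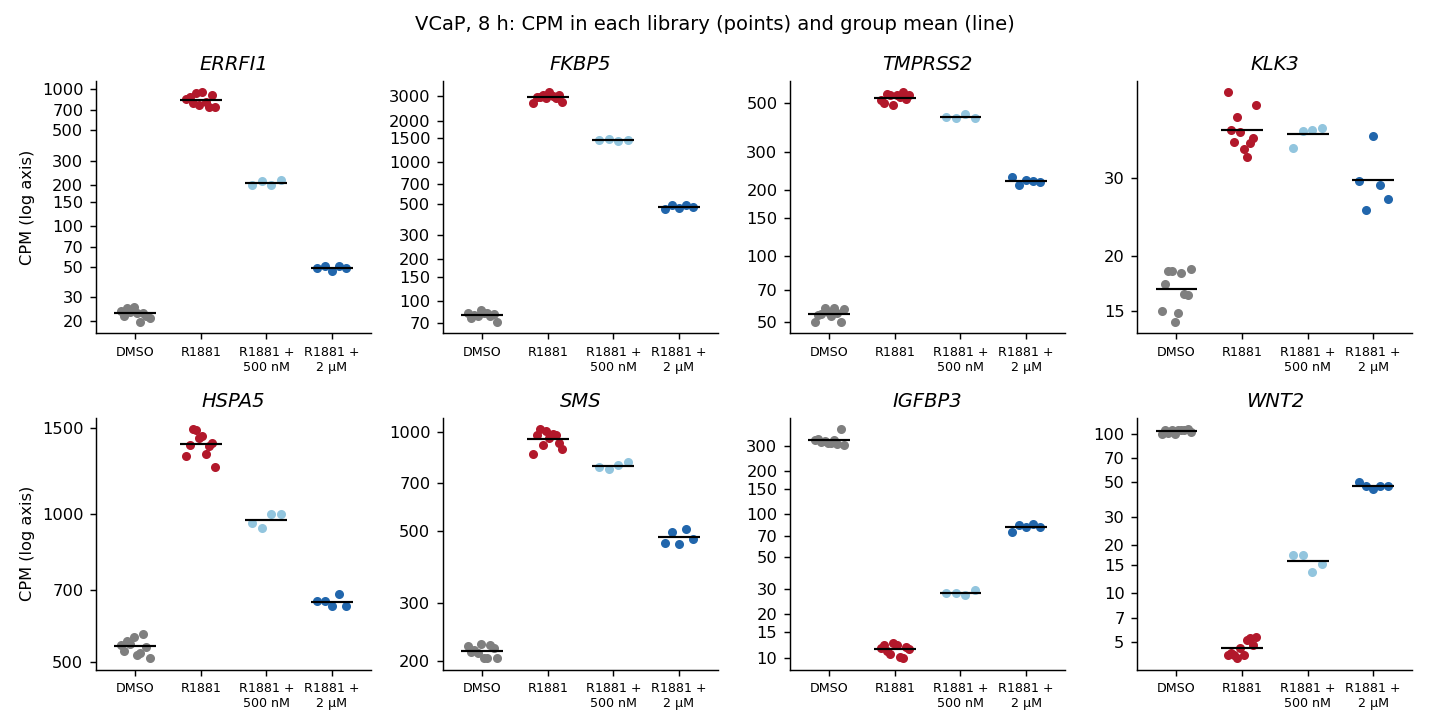
CPM on log axes of 8 genes in each 8 h library (points) with group means (lines) for DMSO, R1881, and R1881 with 500 nM or 2 µM darolutamide. The doses do not overlap in 7 of the genes, and KLK3 is the exception, with 1 high-dose library at 37.5 CPM among the low-dose values of 35.1 to 38.9.

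To say how much of the androgen effect lay between the doses, the dose difference was expressed as a percentage of the R1881 effect. This percentage was taken from log2 fold changes, with the sign changed, and is not a share of CPM. It covers genes with an R1881 effect past 1 on the log2 scale. In 1223 induced genes the median was 31.5% (quartiles 25.02 and 37.83), and in 1595 repressed genes it was 30.2% (quartiles 21.2 and 37.9). Computed on log2 CPM from each high-dose library alone, the medians lay between 29.2 and 31.5% for induced genes (SD 0.921, n = 5) and between 28 and 29.3% for repressed genes (SD 0.479, n = 5). The median reversal of the R1881 effect was 36.3% with 500 nM and 70.3% with 2 µM in induced genes, and 38.4% and 68.2% in repressed genes. These medians share the R1881 and DMSO libraries. Between the doses, 820 of the induced genes were called toward DMSO and 0 away from it (2 at an unadjusted p under 0.05, 0 by DESeq2). Of the repressed genes, 703 were called toward and 0 away (3 at an unadjusted p under 0.05, 0 by DESeq2).

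Genes took widely different positions at 500 nM. At the low dose, KLK2 (-1.79%), KLK3 (2.84%), STEAP4 (2.93%), ERG (5.14%) and TMPRSS2 (8.88%) had lost little of their R1881 log2 fold change or none. At 2 µM the reversal was 22.9% for KLK2, 31.4% for KLK3, 24.1% for STEAP4, 28.5% for ERG and 38.6% for TMPRSS2. On the CPM scale the loss was a larger share for STEAP4 and TMPRSS2. Mean CPM of STEAP4 were 396 with R1881 alone, 351 with 500 nM, 145 with 2 µM and 6.13 with DMSO. Those of TMPRSS2 were 530, 433, 220 and 54.7. At the other end, F3 was reversed by 59.6% with 500 nM and 94.5% with 2 µM, GRHL1 by 55.8% and 93.2%, and KRT8 by 53.9% and 85.4%. RDH10 had the widest step among the 10 falls, from 34.9% to 93.6%. Of the 3334 genes that moved against the R1881 effect, 2391 already differed from R1881 alone toward DMSO at 500 nM (30.6% of all tested genes differed between these groups), 892 did not and 51 stood on the far side. With 2 µM, 2337 still differed from DMSO on the R1881 side (27.5% of all tested genes differed between these groups), 940 did not and 57 lay past DMSO.

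**Figure D3:**
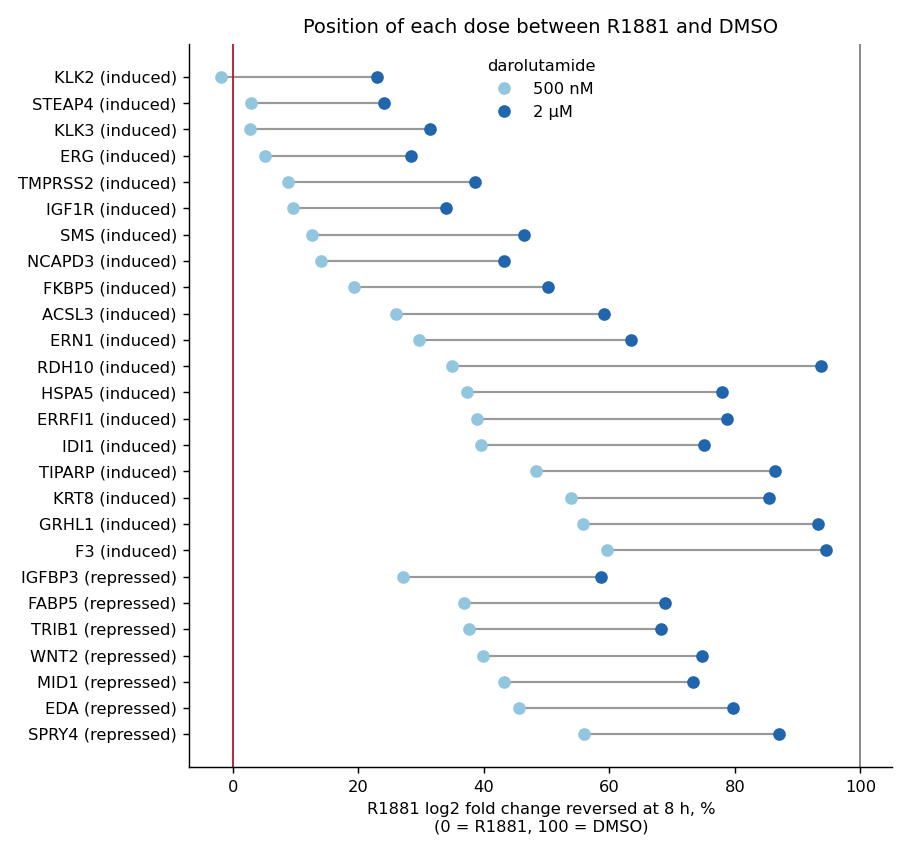
Share of the R1881 log2 fold change reversed at 8 h by 500 nM (light points) and 2 µM darolutamide (dark points) for 19 induced and 7 repressed genes, where 0 is the level with R1881 and 100 that with DMSO. KLK2 runs from -1.79 to 22.9% and F3 from 59.6 to 94.5%.

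Well-known androgen-responsive genes were followed whatever their values. TMPRSS2 (chromosome 21, 41464300 to 41531116), a membrane serine protease, had 432, 427, 445 and 429 CPM with 500 nM and 229, 210.5, 222, 219.6 and 219 CPM with 2 µM, without overlap. Its log2 fold change was -0.98 (standard error 0.0409, adjusted p = 8.08e-27). ERG (chromosome 21, 38380027 to 38661780), which the fusion places under the TMPRSS2 promoter, changed by -0.55 (standard error 0.0431, adjusted p = 1.06e-15). IGF1R, the receptor of insulin-like growth factor 1, changed by -0.52 (standard error 0.0331, adjusted p = 4.24e-19), and KLK2, a kallikrein protease, by -0.24 (standard error 0.0404, adjusted p = 4.41e-06).

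KLK3 (chromosome 19, 50854915 to 50860764) encodes prostate-specific antigen. It is shown with its proximal promoter because it is the classical clinical readout of androgen action and one of the weaker responders here. The 250 bases before its start, on the plus strand at chr19:50854665-50854914 of GRCh38.p14 (RefSeq), hold 1 copy of the letters AGAACA, 1 arm of the palindromic androgen response element, in capitals.
KLK3: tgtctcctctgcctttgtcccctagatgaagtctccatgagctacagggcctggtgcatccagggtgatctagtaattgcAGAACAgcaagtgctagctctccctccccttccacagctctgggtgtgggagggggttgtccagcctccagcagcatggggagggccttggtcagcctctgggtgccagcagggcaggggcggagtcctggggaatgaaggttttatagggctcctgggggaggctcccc
The full palindrome AGAACA, 3 bases, TGTTCT, searched on both strands from 250 bases before to 50 after each start, was in 1 of 35116 RefSeq promoters and in none of the 11328 tested genes that had a promoter in the table. Only exact letters were searched, so an element with a changed arm was not counted as a full one. The capitals therefore do not show whether KLK3 holds only a single arm. The single arm AGAACA was in 14.8% of all promoters and in 12.8% of tested genes. It was in 13.5% of 1425 genes called lower and 15.4% of 1021 called higher. Among the genes called lower by more than 1 on the log2 scale it was in 16 of 86 (18.6%). Differences between these shares were not tested. KLK3 was measured at 35.1, 38.3, 38.7 and 38.9 CPM with 500 nM and 29.6, 25.4, 37.5, 29.0 and 27.0 CPM with 2 µM, and replicate 3 of the high dose lay among the low-dose libraries. The log2 fold change was -0.34 (standard error 0.0852, adjusted p = 0.00195). KLK2 and KLK3 are close paralogs, and how the counting shared reads between them is uncertain.

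ACPP, prostatic acid phosphatase, and PMEPA1, an inhibitor of TGF-beta signalling, did not pass the test between the doses at 8 h. ACPP had log2 fold change -0.03 (standard error 0.0506, adjusted p = 0.789), and R1881 lowered it at 8 h (-0.41). PMEPA1 was measured at 1326, 1309, 1310 and 1350 CPM with 500 nM and 1352, 1337, 1360, 1355 and 1303 CPM with 2 µM, with overlapping groups and a log2 fold change of 0.02 (standard error 0.0300, adjusted p = 0.776). Both doses of darolutamide lay above R1881 alone (980.5 to 1087 CPM) for PMEPA1, by 0.36 and 0.38 on the log2 scale (adjusted p of 2.06e-17 and 2.96e-20), and R1881 lay above DMSO (608 to 671 CPM). After 22 h, ACPP had a median of 10910 CPM with R1881 alone and 6248 CPM with DMSO. The dose differences at 22 h were -0.43 for ACPP (adjusted p = 1.14e-09) and -0.16 for PMEPA1 (adjusted p = 2.68e-05).

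Gene lists were then described by their counts. They were written with earlier results of these data known, so their shares are descriptions, and no test was made over a list. Over all tested genes, 10.0% were called lower and 7.53% higher. Of 64 tested members of the androgen-induced list, 44 fell (68.8%), 1 rose (1.56%) and 19 were not called, with a median log2 fold change of -0.38, where the median over all genes was 0.0046. The falls covered kinases such as SGK1, which controls ion transport and survival (-1.73, adjusted p = 9.45e-17), and CAMKK2, which acts on energy metabolism (-0.30, adjusted p = 1.13e-10). They also covered the secreted ORM1, an acute-phase glycoprotein (-2.22, adjusted p = 3.38e-20), the chloride transporter SLC26A3 (-1.65, adjusted p = 0.000247) and the elongation factor partner EAF2 (-1.53, adjusted p = 1.74e-20). R1881 alone had induced 55 of the 64 and repressed 4. HOXB13, a prostate homeobox factor, was the member that rose (0.26, adjusted p = 0.0435), and R1881 alone had lowered it (-0.97 on the log2 scale). STEAP1, STEAP2, TRPM8 and C1orf116, at -0.07, -0.16, -0.04 and -0.01, were not called.

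Of 35 tested members of the androgen-repressed list, 18 rose (51.4%), 5 fell (14.3%) and 12 were not called, with a median log2 fold change of 0.41, where 7.53% of all tested genes rose and 10.0% fell. Among the rises were the receptor tyrosine kinase MET (0.90, adjusted p = 0.000439), the steroid-modifying enzymes AKR1C3 (0.85, adjusted p = 2.1e-10), UGT2B15 (0.80, adjusted p = 0.00249) and UGT2B17 (0.97, adjusted p = 0.00321), and FOLH1, prostate-specific membrane antigen (0.83, adjusted p = 1.17e-13). The UGT2B genes are close paralogs, so their reads are uncertain. The 5 that fell were THSD7A (-1.16, adjusted p = 6.84e-20), EPHA7, an ephrin receptor (-1.05, adjusted p = 3.95e-07), UGT2B11 (-1.51, adjusted p = 0.00279), BMPR1B, a BMP receptor (-0.59, adjusted p = 5.64e-12), and KLF5, a transcription factor (-0.49, adjusted p = 0.000181). Of the 35 members, 8 were induced by R1881 in these cells, and THSD7A was one of them (3.24 on the log2 scale).

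**Figure D4:**
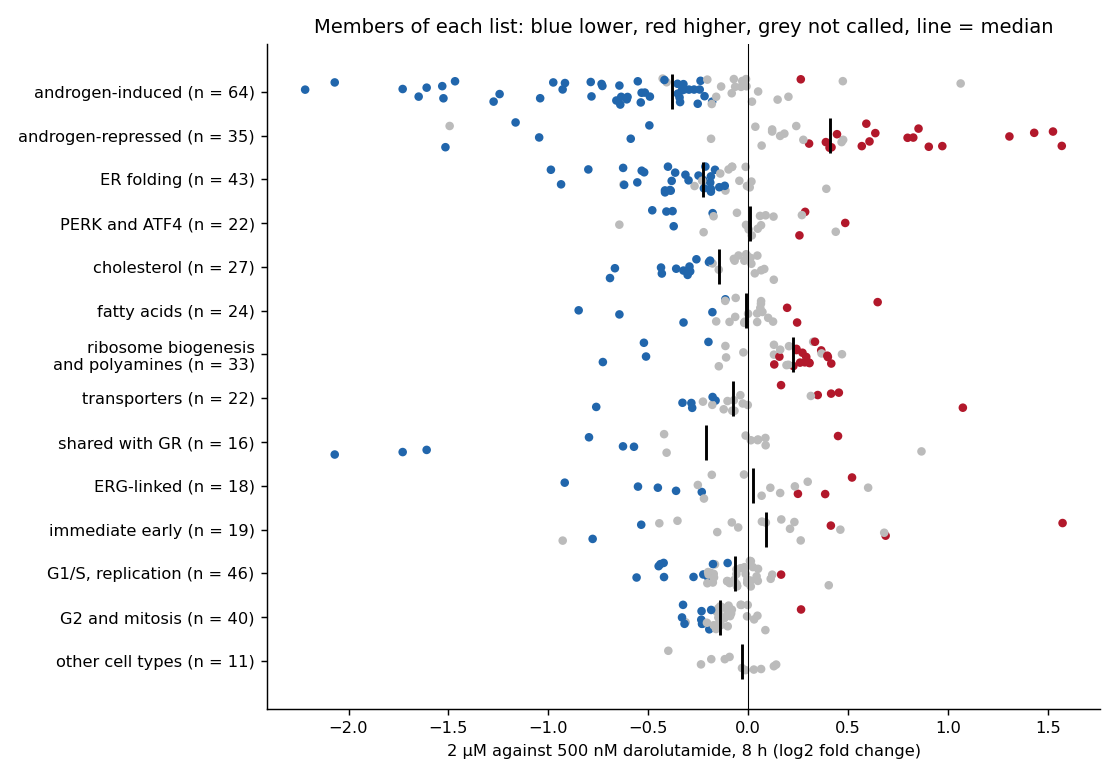
Log2 fold change of 2 µM against 500 nM at 8 h for each tested member of 14 gene lists, with blue for called lower, red for called higher, grey for not called and a line at the list median (GR is the glucocorticoid receptor). The androgen-induced and ER folding lists lie to the left, with medians of -0.38 and -0.23, and the androgen-repressed list and ribosome biogenesis to the right, with 0.41 and 0.23.

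Androgen drives protein secretion in luminal cells, and the endoplasmic reticulum (ER) supplies the chaperones, disulfide isomerases, translocation pores and degradation factors for it. Of 43 tested genes of ER folding, translocation and degradation, 29 fell (67.4%, against 10.0% of all tested genes) and 0 rose (32 and 0 at an unadjusted p under 0.05, 27 and 0 by DESeq2), with a median log2 fold change of -0.23. R1881 alone had induced 37 of the 43. HSPA5 (chromosome 9, 125234853 to 125241382), the BiP chaperone, was measured at 960.3, 939, 999.9 and 999 CPM with 500 nM and 665, 665, 651, 687 and 649 CPM with 2 µM. No library of one dose reached the other, and the log2 fold change was -0.55 (standard error 0.0424, adjusted p = 4.92e-16). ERN1, the IRE1 sensor of unfolded proteins, fell by more (-0.99, standard error 0.0492, adjusted p = 1.33e-23). Falls were also measured for the co-chaperones DNAJB9 (-0.94, adjusted p = 1.82e-14) and DNAJC3 (-0.53, adjusted p = 5.43e-07), for EDEM1 (-0.80, adjusted p = 3.34e-14) and HERPUD1 (-0.62, adjusted p = 2.86e-16), which act in degradation, and for MANF, a secreted ER stress protein (-0.63, adjusted p = 2.55e-12). SEL1L, EDEM3, SSR4 and SPCS1 stood at -0.01, -0.01, 0.01 and 0.02 and were not called.

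Many genes of ER chaperones carry the ER stress response element, a CCAAT box separated by 9 bases from CCACG, close to their start. These letters, on either strand, were searched in the RefSeq promoters of GRCh38.p14. They were in 0.0769% of 35116 promoters, in 15 of 11328 tested genes with a promoter, and in 7 of 39 such genes of the ER list. Those 7 are shown because they let the shared letters be seen beside the measured falls, as the 250 bases before the start of HSPA5 and as the element with 20 bases on each side for the others, in the direction of transcription with the element in capitals. Where the element lies on the other strand, it reads CGTGG, 9 bases, ATTGG, and HSP90B1 holds a copy in each direction.
HSPA5: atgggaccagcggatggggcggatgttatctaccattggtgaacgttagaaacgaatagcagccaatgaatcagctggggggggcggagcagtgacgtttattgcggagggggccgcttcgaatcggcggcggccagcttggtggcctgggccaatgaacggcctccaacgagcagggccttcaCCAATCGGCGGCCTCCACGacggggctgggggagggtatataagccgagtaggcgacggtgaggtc
HSP90B1: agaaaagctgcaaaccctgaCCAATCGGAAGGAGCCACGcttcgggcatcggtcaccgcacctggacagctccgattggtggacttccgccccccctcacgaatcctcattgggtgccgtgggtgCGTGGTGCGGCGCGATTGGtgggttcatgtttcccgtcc
CALR: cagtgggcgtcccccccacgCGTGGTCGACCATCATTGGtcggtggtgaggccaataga
CANX: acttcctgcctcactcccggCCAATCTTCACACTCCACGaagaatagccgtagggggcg
PDIA6: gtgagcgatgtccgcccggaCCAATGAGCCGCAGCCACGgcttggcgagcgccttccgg
CRELD2: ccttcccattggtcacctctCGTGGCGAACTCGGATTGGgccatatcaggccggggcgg
XBP1: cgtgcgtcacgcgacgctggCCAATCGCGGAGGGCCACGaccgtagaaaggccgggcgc
They lie at chr9:125241344-125241593 (minus strand), chr12:103930196-103930359 (plus), chr19:12938364-12938422 (plus), chr5:179698758-179698816 (plus), chr2:10812833-10812891 (minus), chr22:49918534-49918592 (plus) and chr22:28800583-28800641 (minus).

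Beside the fall of HSPA5, the log2 fold changes of these genes were -0.31 (adjusted p = 5.99e-06) for the chaperone HSP90B1, -0.23 (adjusted p = 0.000201) and -0.19 (adjusted p = 0.00166) for the lectin chaperones calreticulin and calnexin, -0.21 (adjusted p = 1.45e-05) for a disulfide isomerase, and -0.12 (adjusted p = 0.0428) for XBP1, the transcription factor that IRE1 activates. CRELD2 was at -0.27 (adjusted p = 0.215) and was not called. Of all 15 tested genes with the letters, 9 were called lower and the other 6 were not called, where 1425 of the 11328 tested genes with a promoter were called lower (12.6%). A match is a description of these letters and not of a bound site.

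PERK, the other ER stress sensor named here, and its target ATF4 control amino acid synthesis and stress genes. Of 22 such genes, 5 fell (22.7%, against 10.0% of all tested genes) and 3 rose (13.6%, against 7.53%), with a median of 0.01. The falls were EIF2AK3, which encodes PERK (-0.41, adjusted p = 1.45e-07), ATF4 (-0.18, adjusted p = 8.13e-05), DDIT3 (-0.38, adjusted p = 8.38e-05), SESN2 (-0.48, adjusted p = 0.0158) and VEGFA (-0.37, adjusted p = 2.85e-05). The serine synthesis enzymes PHGDH (0.26, adjusted p = 0.00534) and PSAT1 (0.28, adjusted p = 0.000558) rose, as did the secreted STC2 (0.49, adjusted p = 2.22e-05). Among 20 cytosolic tRNA synthetases, TARS (-0.26, adjusted p = 1.15e-05) and MARS (-0.16, adjusted p = 0.0041) fell, FARSB (0.20, adjusted p = 0.00635) and VARS (0.29, adjusted p = 0.0485) rose, and 16 were not called. The shares of 10% lower and 10% higher were close to the 10.0% and 7.53% of all tested genes.

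Of 27 genes of cholesterol synthesis and uptake, 12 fell (44.4%, against 10.0% of all tested genes) and 0 rose (12 and 0 both at an unadjusted p under 0.05 and by DESeq2), with a median log2 fold change of -0.15. IDI1, which isomerises isopentenyl diphosphate, was measured at 130.1, 128, 119 and 136 CPM with 500 nM and 75.3, 84.6, 77.7, 84.5 and 81.2 CPM with 2 µM. On the log2 scale the difference was -0.67 (standard error 0.0612, adjusted p = 4.06e-13). STARD4, a cholesterol carrier (-0.69, adjusted p = 9.43e-07), NSDHL (-0.43, adjusted p = 7.95e-06) and HMGCS1 (-0.36, adjusted p = 4.68e-06), enzymes of cholesterol synthesis, were also lower. The regulators SREBF1, SREBF2 and SCAP stood at 0.01, -0.01 and 0.05 and were not called. R1881 alone had induced 15 of the 27 genes and repressed 2.

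Of 24 fatty acid genes, 5 were lower (20.8%) and 3 higher (12.5%), where 10.0% and 7.53% of all tested genes were. ACSL3, an acyl-CoA synthetase, had 1044, 1046, 1024 and 1070 CPM with the low and 567, 602, 561, 610.3 and 565 CPM with the high dose. The difference of ACSL3 on the log2 scale was -0.85 (standard error 0.0571, adjusted p = 3.37e-18). The elongases ELOVL7 (-0.64, adjusted p = 1.74e-11), ELOVL2 (-0.32, adjusted p = 2.9e-06) and ELOVL5 (-0.18, adjusted p = 0.0137) and the citrate lyase ACLY (-0.11, adjusted p = 0.0413) fell, and the carrier FABP5 (0.65, adjusted p = 1.95e-09), the elongase ELOVL4 (0.24, adjusted p = 0.0249) and ACSL1 (0.19, adjusted p = 0.0125) rose. FASN, fatty acid synthase, was at -0.16 (adjusted p = 0.838). Of 22 transporters of amino acids, zinc and manganese, 6 fell (27.3%) and 5 rose (22.7%). The zinc transporter SLC30A4 (0.45, adjusted p = 1.18e-07) and the manganese exporter SLC30A10 (1.07, adjusted p = 0.00213) rose, while the zinc transporter SLC39A7 of the ER (-0.28, adjusted p = 1.13e-07) and the amino acid transporters SLC38A4 (-0.76, adjusted p = 5.31e-06) and SLC1A4 (-0.28, adjusted p = 0.000233) fell.

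Ribosome biogenesis, the MYC network and polyamine metabolism were joined in 1 list of 33 genes, of which 16 rose (48.5%, against 7.53% of all tested genes) and 4 fell (12.1%, against 10.0%), with a median of 0.23. R1881 had repressed 25 of the 33. The rises included genes of ribosome production, such as DKC1, which modifies ribosomal RNA (0.42, adjusted p = 5.24e-11), PES1 (0.40, adjusted p = 0.00108), RRP12 (0.40, adjusted p = 0.0383), NOP16 (0.37, adjusted p = 0.00226), nucleolin, NCL (0.23, adjusted p = 7.45e-06), and the RNA polymerase I subunits POLR1A (0.29, adjusted p = 6.08e-08) and POLR1B (0.27, adjusted p = 5.23e-05). The falls were led by polyamine enzymes. Spermine synthase, SMS, was measured at 782, 772, 794 and 810.3 CPM with 500 nM and 459.9, 494, 454, 504 and 472 CPM with 2 µM. Its log2 fold change was -0.73 (standard error 0.0454, adjusted p = 1.57e-19). SAT1, which acetylates spermidine (-0.52, adjusted p = 3.55e-11), ODC1, ornithine decarboxylase (-0.51, adjusted p = 6.57e-14), and the MAX partner MXD1 (-0.20, adjusted p = 0.042) were the other 3 falls. The polyamine genes SRM, AMD1 and AZIN1 stood at 0.20, -0.11 and -0.02 and were not called.

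Of 46 genes of the G1 to S transition and replication, 10 fell (21.7%, against 10.0% of all tested genes) and 1 rose, with a median of -0.06. The falls included the kinases CDK2 (-0.20, adjusted p = 0.000462) and CDK6 (-0.56, adjusted p = 0.00862), the inhibitors CDKN1A (-0.44, adjusted p = 2.16e-05) and CDKN1C (-0.45, adjusted p = 0.00233), and the replication factors GINS3 (-0.42, adjusted p = 9.1e-06) and POLE2 (-0.42, adjusted p = 0.00306), and CDK4 rose (0.16, adjusted p = 0.00717). The 6 subunits of the MCM2 to MCM7 helicase lay between -0.00460 and 0.11 and were not called. R1881 alone had induced 27 of the 46 and repressed 9, and 30.2% of all genes that R1881 induced fell between the doses. Of 40 genes of G2 and mitosis, 9 fell (22.5%) and 1 rose (2.5%), with a median of -0.14. At an unadjusted p under 0.05, 19 of these fell, and with the GC slope of the libraries as a covariate 18 fell and 1 rose at an adjusted p under 0.05. KIF20A, a mitotic kinesin, was measured at 66.9, 62.8, 61.8 and 59.7 CPM with 500 nM and 48.2, 53.6, 47.1, 50.1 and 50.5 CPM with 2 µM. The corresponding log2 fold change was -0.33 (standard error 0.0530, adjusted p = 1.93e-06). MKI67, the proliferation marker, changed by -0.23 (adjusted p = 0.00245) and PRC1, a spindle protein, by -0.23 (adjusted p = 4.42e-05). Of the 40 genes of G2 and mitosis, R1881 alone had induced 18 and repressed 3.

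Of 8 tested targets and partners of the aryl hydrocarbon receptor, 4 fell (50%, against 10.0% of all tested genes) and 0 rose (6 and 0 at an unadjusted p under 0.05, 4 and 0 by DESeq2). Beside TIPARP these were CYP1A1 (-0.60, adjusted p = 0.00381), AHR itself (-0.61, adjusted p = 0.00344) and NFE2L2 (-0.38, adjusted p = 4.04e-08), and R1881 had induced 7 of the 8. Of 16 genes that glucocorticoid receptor also controls, 6 fell (37.5%) and 1 rose (6.25%, against 7.53% of all tested genes). Among them were the clock gene PER1 (-0.80, adjusted p = 0.00116), CEBPD (-0.63, adjusted p = 0.00888) and NFKBIA, the inhibitor of NF-kappa-B (-0.57, adjusted p = 6.76e-17). NR3C1, the glucocorticoid receptor gene, was the one that rose (0.45, adjusted p = 0.0412). TSC22D3, KLF9 and DUSP1 stood at 0.05, 0.09 and 0.01 and were not called.

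Among 19 immediate early and ERK feedback genes, 2 fell (10.5%) and 3 rose (15.8%), where 10.0% and 7.53% of all tested genes did, so that the share of falls was near that of all genes. SPRY4 (1.19, 1.254, 1.495 and 1.24 CPM with 500 nM, 2.60, 3.92, 4.23, 4.58 and 3.88 CPM with 2 µM) and SPRY1, inhibitors of receptor tyrosine kinase signalling, rose by 1.57 and 0.69 on the log2 scale, and JUN by 0.41. SPRED1, an inhibitor of the same pathway, fell (-0.78, adjusted p = 3.17e-10), as did EGR1 (-0.54, adjusted p = 0.00273). Of 18 genes linked to ERG, 5 fell (27.8%) and 3 rose (16.7%), with AMACR, an enzyme of branched fatty acids used as a tumour marker, at -0.92 (adjusted p = 4.98e-12) and SH3RF1 at 0.39 (adjusted p = 4.56e-14). Of 17 p53 and heat shock genes, 3 fell, which were CDKN1A, HSPH1 (-0.34, adjusted p = 1.95e-06) and DNAJB1 (-0.33, adjusted p = 7.62e-11), and 2 rose, which were FAS (0.29, adjusted p = 0.0371) and SESN1 (0.33, adjusted p = 3.68e-05). The corresponding shares, 17.6% and 11.8%, rest on these 5 genes and stood beside 10.0% and 7.53% of all tested genes. Of 12 genes of drug metabolism and export under the receptors PXR and CAR, the filter on low counts left ABCC2 (mean 0.165 CPM with 500 nM and 0.356 with 2 µM) and ABCG2 (0.805 and 0.658), which were not called. Of the 10 luminal markers, 4 fell (40%) and 3 rose (30%), and KRT8 (-0.73, adjusted p = 4.08e-06) and KRT18 (-0.61, adjusted p = 3.86e-11) fell most. These keratin genes overlap each other in the annotation on opposite strands, so their reads are uncertain.

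The exceptions to the R1881 pattern were few, and a threshold of 0.05 over 3386 called genes allows false calls among them. Of the 5 genes that moved in the direction of the R1881 effect, KCNN2, a calcium-activated potassium channel, and ACSL1 were the ones above the median expression. KCNN2 was measured at 75.3, 73.5, 73.4 and 71.4 CPM with 500 nM and 81.2, 92.1, 80.3, 85.6 and 80.8 CPM with 2 µM. Between the doses the log2 fold change was 0.19 (standard error 0.0471, adjusted p = 0.00149), against an R1881 effect of 0.10. ACSL1 stood below both controls at both doses: DMSO gave 157 to 171 CPM and R1881 156 to 219 CPM, the low dose 101, 98.7, 92.02 and 104 CPM and the high dose 115.6, 119.7, 107, 118 and 106 CPM. Its log2 fold change between the doses was 0.19 (standard error 0.0585, adjusted p = 0.0125), and without 500 nM replicate 3 it was 0.16 (adjusted p = 0.0756) and no longer called.

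Among the 6375 genes not called for R1881, 47 were called between the doses (0.392% lower and 0.345% higher, against 10.0% and 7.53% of all tested genes). Single genes among them may be false calls. Those above the median with the largest differences included EEF1GP2, a pseudogene whose reads may come from its parent gene (0.27, adjusted p = 0.0228). The others were SLC6A6, the taurine transporter (0.25, adjusted p = 0.00151), MYO1E, a myosin (0.25, adjusted p = 0.000332), and KIAA0907 (-0.30, adjusted p = 0.00458). EEF1GP2 was no longer called without 500 nM replicate 4 (0.20, adjusted p = 0.161) or without 2 µM replicate 4 (0.21, adjusted p = 0.101). SLC6A6 was lower than R1881 alone at 500 nM (-0.27, adjusted p = 5.14e-05) and near it at 2 µM (-0.02). At the threshold of the test, GPR160 was the last gene called (log2 fold change 0.16, adjusted p = 0.0499) and THSD1 the first not called (-0.45, adjusted p = 0.05002).

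The same contrast was tested after 22 h in separate libraries. At that time 3889 genes differed between the doses (20.2%), and the difference of both contrasts, tested itself as an interaction, was called in 642 genes toward higher values (3.33%) and 514 toward lower values (2.67%). With the GC slope as a covariate the interaction was called in 2605 genes in place of 1156. Of the 3386 genes called at 8 h, 1642 were called with the same sign at 22 h, 92 with the opposite sign and 1652 were not. The interaction was called in 715 of the 3386. The difference had become larger with the same sign in 121 of these and smaller in 253, and in 341 its sign was opposite. Signs at 22 h were counted here whether or not the 22 h difference was called. Because these genes were chosen by their 8 h difference, which the interaction reuses, the split cannot tell whether dose differences generally shrank with time.

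RDH10 was the extreme case among the falls. After 22 h it was measured at 12.3, 11.1, 13.6 and 13.7 CPM with 500 nM and 12.6, 14.4, 14.2, 17.6 and 14.1 CPM with 2 µM, and its log2 fold change was 0.20 (adjusted p = 0.173; interaction 3.04, adjusted p = 3.71e-25). R1881 alone gave 726 to 1076 CPM at 8 h and 24.7 to 33.8 CPM at 22 h, and DMSO 24.5 to 28.6 CPM at 22 h, so that with R1881 alone the level at 22 h was close to that with DMSO. The pattern of ERRFI1, TIPARP, IL20RA, F3 and GRHL1 was less extreme. With R1881 alone at 8 h their median CPM were 826, 374, 214, 165 and 93.4 and at 22 h they were 203, 42.6, 104, 27.1 and 22.5. Their dose differences on the log2 scale were -0.75, -0.35, -0.75, -0.63 and -0.32 at 22 h, each smaller than at 8 h by the interaction test.

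Other genes widened. STEAP4, a metalloreductase, was measured at 368, 349, 341 and 344 CPM with 500 nM and 141, 152, 141, 149 and 142 CPM with 2 µM at 8 h. After 22 h it had 252, 289.7, 282 and 299 CPM and 37.8, 43.7, 41.2, 44.1 and 41.5 CPM. The log2 fold change went from -1.27 to -2.75 (interaction adjusted p = 2.64e-18), while R1881 alone gave medians of 392 and 949 CPM. TMPRSS2 went from -0.98 to -1.49, KLK3 from -0.34 to -0.93, SAT1 from -0.52 to -1.14, WNT2 from 1.57 to 2.86 and ALB, albumin, from 0.36 to 1.97, each with a called interaction. FKBP5 (-1.61 and -1.43) had no called interaction, with an adjusted p of 0.0942. SPRY4 turned from 1.57 to -0.65.

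The ER folding list was lower at both times, with 29 of 43 members at 8 h and 32 at 22 h, where 10.0% and 9.75% of all tested genes were lower, and its medians were -0.23 and -0.30. ERG-linked genes called lower numbered 5 of 18 at 8 h and 11 at 22 h. Replication genes called lower numbered 10 at 8 h and 4 at 22 h, and mitotic genes called in either direction numbered 10 and 1, where 17.6% and 20.2% of all tested genes were called.

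**Figure D5:**
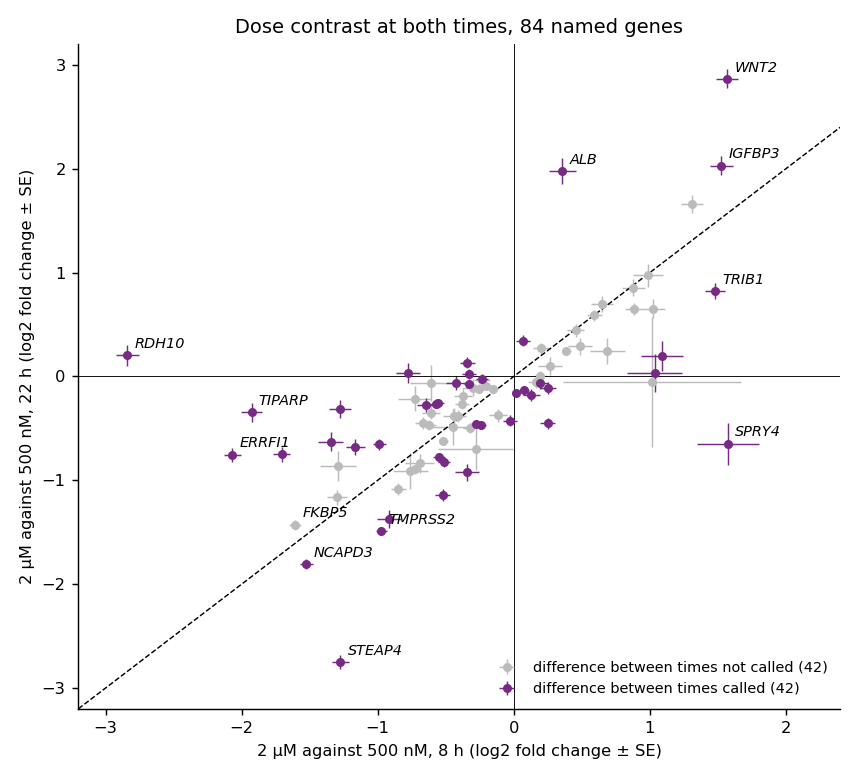
Log2 fold change of 2 µM against 500 nM darolutamide at 8 h (x axis) and at 22 h (y axis) for the 84 named genes, with standard errors. Purple marks the 42 genes whose difference between the times was called, the dashed line is equality, and RDH10 (-2.84 and 0.20) and STEAP4 (-1.27 and -2.75) lie farthest from it on either side among the falls.

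LAPC4 cells were treated with the same doses for the same time. There, 5 of 18204 genes differed between the doses (0.0275%), against 576 at an unadjusted p under 0.05 and 9 by DESeq2. Of the 3386 genes called in VCaP, 2956 were tested in LAPC4 and 3 of them were called. The log2 fold changes in LAPC4 were centred near 0, with a median of -0.01 for VCaP falls and -0.00093 for VCaP rises. Among the named genes ELOVL7 was called in both lines, by -0.64 in VCaP and -0.32 in LAPC4 (adjusted p = 0.00702). ERRFI1, TIPARP, FKBP5 and NCAPD3 had log2 fold changes of 0.02, 0.08, -0.19 and -0.05 in LAPC4 and were not called. The difference between the cell lines was not tested.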

How the data were processed

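The authors sequenced polyadenylated RNA with a stranded kit and single-end reads. STAR and featureCounts (Subread), bcl2fastq 2.17, DESeq2 and the build GRCh38 are named in the submitters' processing notes, while the annotation and the strand setting are not given in the sources used here. The deposited table holds whole-number read counts per gene symbol for 112 libraries, and all of its columns were mapped to a sample (0 were not).

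A minimum of 10 reads in 4 or more VCaP libraries was set, and the genes that passed were tested with R 4.3.3 and edgeR 4.0.16 (TMM, glmQLFit and glmQLFTest on all VCaP libraries by treatment and time, LAPC4 separately) with Benjamini-Hochberg adjustment over all genes and a threshold of 0.05. CPM are computed from the deposited counts with TMM library sizes, and counting error is large for genes of few reads, such as ABCC2. DESeq2 1.42.0 and other filters, covariates and samples served as alternatives. On simulated counts for the 8 h dose contrast (18827 genes, 50 changed by each fold), 44% of 1.25-fold, 66% of 1.5-fold, 76% of 2-fold and 96% of 4-fold changes were recovered, and 5.37% of calls were false. Only 200 genes were changed in the simulation, whereas 17.6% of genes were called in the data. The simulated rates therefore need not hold for the measured contrast.

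The genes described are the 10 largest falls and rises without overlap and above the median expression, the 3 genes with the smallest adjusted p of each list, 11 known genes of the androgen response, the 4 largest called changes, where there were as many, along the R1881 effect, outside it, and in the interaction of dose and time, and the genes at the threshold. Some of these genes are not reported here, and list counts include them. Other list members were named after their values were seen. The members and lists were chosen with earlier results of these data known. The groups compared here also share the R1881 and DMSO libraries wherever a dose is set against them. Promoter sequences are from RefSeq (GRCh38.p14), and gene coordinates from GENCODE 44, matched by symbol.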

Additional observations from a re-analysis of the deposited data

Results flagged for a closer look

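In 8 of 168 groups of libraries tested, each of 1 named gene at 1 dose after 8 h, a single library stood apart from the rest of its group by Dixon's test, and chance gives about 1 in 20 such groups. They were ODC1 in 2 µM replicate 3 (324 CPM, against 355 to 365 in the others), EIF2AK3 in 500 nM replicate 2 (47.8 CPM, against 50.0 to 50.4 in the others), KLK3 in 500 nM replicate 1 (35.1 CPM, against 38.3 to 38.9 in the others), SLC39A7 in 2 µM replicate 2 (219 CPM, against 235 to 239.7 in the others), ACPP in 500 nM replicate 1 (5459 CPM, against 5017 to 5057 in the others), ACPP in 2 µM replicate 3 (4719 CPM, against 5088 to 5194 in the others), SLC6A6 in 2 µM replicate 5 (31.9 CPM, against 28.7 to 29.6 in the others) and TRIB1 in 2 µM replicate 3 (378 CPM, against 431 to 434 in the others). ACPP thus had such a library at either dose, and 2 µM replicate 3 was the library in 3 of the 8. For KLK3 the groups overlapped, as given above.

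For 42 of the 84 named genes the dose effect at 22 h differed from that at 8 h by the interaction test of edgeR. Over all 19266 tested genes, this test called 642 toward higher values (3.33%) and 514 toward lower values (2.67%). Some named genes were chosen for a large interaction, and many for their 8 h difference. Their count therefore does not show how common such differences were. The values here are the log2 fold change at 22 h minus that at 8 h. Among falls at 8 h that were smaller but still called at 22 h they were ERRFI1 1.32, TIPARP 1.58, IL20RA 0.96, F3 0.72, GRHL1 0.96, THSD7A 0.49, ERN1 0.33, ELOVL7 0.37, NFKBIA 0.31 and HSPA5 0.30. Among falls that were no longer called they were RDH10 3.04, SPRED1 0.81, GINS3 0.36, HSPH1 0.47, KIF20A 0.36, DNAJB1 0.25 and PRC1 0.21. Falls that were larger at 22 h gave NCAPD3 -0.28, STEAP4 -1.48, TMPRSS2 -0.51, AMACR -0.46, ERG -0.23, SAT1 -0.62, ODC1 -0.32, KLK3 -0.58, SLC39A7 -0.17 and KLK2 -0.22. Of the rises at 8 h, ALB 1.62, IGFBP3 0.50 and WNT2 1.30 were larger at 22 h, TRIB1 -0.66 was smaller, and ACSL1 -0.26, SLC6A6 -0.36, IHH -1.0 and SSTR5-AS1 -0.90 were no longer called. The sign was reversed, with calls at both times, for MYO1E -0.70 and SPRY4 -2.22. Genes that were not called at 8 h gave ACPP -0.40, PMEPA1 -0.18, CHGB 0.28, FOXA1 -0.20 and SYP -0.31.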

How the results depend on the processing

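Of 756 values of the 84 named genes under 9 alternatives, 745 kept their direction and side of the threshold, 8 lost the call (among GPR160, MARS, FARSB, EEF1GP2 and ACSL1), 3 gained it (THSD1 and FOXA1) and 0 turned their sign. Leaving out 500 nM replicate 3 ended the calls of ACSL1 (0.16, adjusted p = 0.0756) and GPR160 (0.13, adjusted p = 0.201), leaving out replicate 4 of either dose that of EEF1GP2 (adjusted p of 0.161 for 500 nM and 0.101 for 2 µM), and of 9 such fits 1, 6 and 2 did not call ACSL1, GPR160 and EEF1GP2. The number of genes called between the doses at 8 h was 3386, and 255 past 1 on the log2 scale. With the GC slope of the libraries as a covariate 5130 genes were called, and the interaction with time then held 2605 genes in place of 1156. DESeq2 gave 3267 genes for VCaP at 8 h and 9 for LAPC4 in place of 5. The median dose step with control replicates 1 to 5 alone was 30.6% in induced and 29.6% in repressed genes, and for repressed genes above the median expression it was 30.8%. The cause of these differences was not tested. Other filters, size factors or only the 9 dose libraries gave 2792 to 3550 genes. Leaving out each dose library in turn gave 2883 to 3256 genes called, 253 to 269 past 1, 993 to 1134 interactions, and median steps of 30.9 to 32.1% and 29.9 to 30.4%.

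Replicate numbers are shared by both doses, and the deviations of same-numbered libraries correlated at -0.166, -0.0524, 0.125 and -0.0684. These few values cannot decide whether same-numbered libraries were handled together, and the labels do not say. With the replicate block over replicates 1 to 4, 2363 genes were called (211 past 1), and 4890 (286 past 1) with block and GC slope together. In alternatives chosen after seeing the data, the same 8 libraries without the block gave 3092 genes, and leaving out 500 nM replicate 1 and 2 µM replicate 3, the libraries with the most distant GC slopes, gave 2829 (271 past 1). The median of the fatty acid list turned from -0.00874 to 0.00146 and that of the ERG-linked list from 0.023 to -0.0117 under another scaling or the GC slope. Lists of 2 to 64 genes and 4 libraries at 500 nM limit the precision, and the sensitivity on simulated counts is given under processing.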
